A study of Mus musculus with 12 samples.

Results

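Nonsense-mediated decay (NMD) destroys mRNAs on which a ribosome stops too early, and the 9 genes described here encode its core factors. They are Upf1, Upf2, Upf3a, Upf3b, Smg1, Smg5, Smg6, Smg8 and Smg9, taken by name from the 55536 annotated genes of the count table, and all 9 were measured in every library. RNA-seq was made from OT-I CD8+ T cells, which carry a transgenic T cell receptor for the ovalbumin peptide SIINFEKL. The question was how costimulation through CD134 (OX40) and CD137 (4-1BB) changes the RNA of T cells that meet antigen in vivo.

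In the Ag group (5 libraries) and the Ag+Costim group (5 libraries), OT-I Tg C57BL/6J cells had been transferred into C57BL/6J recipients, which then received the peptide. Ag recipients were given control rat IgG with it, and Ag+Costim recipients were given agonist antibodies against CD134 and CD137. Cells were sorted as CD8+ from spleen and lymph nodes, after 4 days according to the labels, with the donor marker CD45.1 and the receptor chains Vα2 and Vβ5 in the gate. The Naive group (2 libraries) was purified from OT-I mice with no transfer, peptide or antibody, so Naive and Ag differ in transfer, host and gate as well as in antigen. The OT-I donors were Rag1-/- or Rag2-/-, and which of these applies to a library is not given. Mice of both sexes were used, and the ages given for them in the study differ between its sections. The study calls each library a biological replicate, while the labels do not say which libraries came from separate animals, so the p-values measure the spread between these libraries.

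The 5 libraries of Ag and of Ag+Costim and the 2 Naive libraries held 39994606 to 49258758 gene counts, except Ag 4 with 23976932. The 8 T cell markers (Cd3d, Cd3e, Cd3g, Cd8a, Cd8b1, Trac, Cd2 and Lck) summed to 12882 to 13591 CPM (counts per library scaled to a common total) in Naive, 10442 to 13332 in Ag and 5562 to 7673 in Ag+Costim, and Cd4 to at most 2.4 CPM. Markers of other cells differed between the groups. The 5 erythroid genes summed to 168 to 2312 CPM in Naive, 588 to 6720 in Ag and 14.0 to 210 in Ag+Costim, and the 4 B cell genes to 30.6 to 33.2, 101 to 154 and 21.7 to 54.8 CPM. The 5 myeloid genes summed to 27.0 to 55.9 CPM in Naive, 56.0 to 174 in Ag and 82.8 to 145 in Ag+Costim, and 3 of them were called higher in Ag+Costim than in Ag (Itgam, Csf1r and Adgre1). The 2 NK cell genes summed to 13.2 to 15.1, 6.29 to 15.3 and 1.16 to 3.17 CPM, and Klrb1c was called lower. The 5 proliferation genes summed to 34.0 to 35.7 CPM in Naive, 426 to 921 in Ag and 1779 to 2243 in Ag+Costim. No marker of these lists was at 0 in all libraries, and their part in the results that follow was not tested. In bulk RNA, fewer cells of one kind and less RNA per cell cannot be told apart.

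In the textbook pathway, Upf1 is an RNA helicase that joins a ribosome stalled at a premature stop codon. Upf2 bridges Upf1 to Upf3b or its paralog Upf3a, which contact the exon junction complex left by splicing downstream of the stop. Smg1 is a kinase that phosphorylates Upf1, and Smg8 and Smg9 bind Smg1 and hold its activity in check. Phosphorylated Upf1 is bound by Smg6, an endonuclease, and by Smg5, which helps to bring in deadenylation and decapping enzymes. The mRNAs of several of these factors are themselves known substrates of the pathway.

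3 sequences are shown because they mark where the deposited transcripts of Upf1, Smg5 and Smg9 part from each other. Positions are in mm10 and letters are from the GENCODE vM21 transcript sequences, read 5′ to 3′ on the strand of the gene. The Upf1 sequence is exon 7 of 24 (chr8:70339982-70340099, minus strand), and its 33 bases in capitals are in the coding transcript Upf1-201 and not in the coding transcript Upf1-202. Those 33 bases make 11 codons, and the transcripts correspond to the forms of the helicase with a long and a short regulatory loop. The Smg5 sequence spans the end of exon 12 of 22 (chr3:88351522-88351671, plus strand), and the Smg9 sequence spans the end of exon 6 of 14 (chr7:24407574-24407723, plus strand). In both, lower case is exon and the 90 capitals are intron, which the transcripts Smg5-203 and Smg9-205 keep and the full-length coding transcripts Smg5-201 and Smg9-201 remove.
Upf1 exon: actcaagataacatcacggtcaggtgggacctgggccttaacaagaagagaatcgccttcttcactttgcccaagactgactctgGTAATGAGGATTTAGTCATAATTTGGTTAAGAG
Smg5-203 boundary: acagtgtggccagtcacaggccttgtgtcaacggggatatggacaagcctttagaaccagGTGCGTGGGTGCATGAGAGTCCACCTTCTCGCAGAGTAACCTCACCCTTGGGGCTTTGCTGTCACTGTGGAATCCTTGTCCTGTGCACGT
Smg9-205 boundary: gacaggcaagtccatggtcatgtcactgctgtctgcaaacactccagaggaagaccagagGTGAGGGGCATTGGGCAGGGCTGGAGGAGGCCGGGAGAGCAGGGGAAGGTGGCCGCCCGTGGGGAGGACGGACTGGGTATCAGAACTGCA

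Smg5-203 and Smg9-205 are typed as retained introns in the annotation, and each ends inside the intron it enters. Smg5-203 keeps 1148 of the 1381 bases of intron 12 and lacks the last 10 exons. Its reading frame meets a TAA that starts 249 bases after the exon end, which leaves 702 codons of the 1017 in the full-length coding sequence. Smg9-205 keeps 640 of the 7305 bases of intron 6 and lacks the last 8 exons. There the frame meets a TGA that starts at base 2 of the intron, which leaves 234 codons of 520. Neither AATAAA nor ATTAAA occurs on the transcribed strand in the last 60 bases of either transcript. No later exon follows the stop in either transcript.

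Between antigen with and without costimulation, the 9 factors split by direction. Upf1, Smg5 and Smg8 rose with costimulation, by 4.90-fold, 2.53-fold and 1.91-fold, and Smg9 by 1.23-fold. Upf3b, Upf3a and Upf2 were lower by 1.71-fold, 1.54-fold and 1.30-fold, while Smg1 and Smg6 did not pass the test. The test was edgeR's robust quasi-likelihood test on the counts of all 12 libraries, two-sided, at a Benjamini-Hochberg adjusted p below 0.05 over 18817 genes. It called 4 of the 9 factors higher, against 26.6% of all genes tested, and 3 lower, against 26.5%. Levels below are CPM after TMM scaling unless another scale is named.

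Upf1, the helicase at the centre of the pathway (chr8:70331525-70353278, minus strand, mm10), had 16.0, 23.2, 19.5, 28.0 and 22.5 CPM in Ag 1 to 5. In Ag+Costim 1 to 5 it had 117, 159, 98.0, 64.6 and 94.5 CPM, and in Naive 56.8 and 64.3 CPM. Every Ag library lay below both Naive libraries, and every Ag+Costim library lay above them. The lowest Ag+Costim library, at 64.6 CPM, was just above the higher Naive library. Group means were 21.8 ± 4.46 CPM (SD, n = 5) in Ag and 107 ± 34.9 CPM (SD, n = 5) in Ag+Costim. The log2 fold change of Ag+Costim against Ag was 2.29 with an SE of 0.21 and an edgeR adjusted p of 1.14e-06, at percentile 95.9 of the log2 fold changes of all genes tested. Against Naive, Upf1 was lower in Ag, with a log2 fold change of -1.47 (SE 0.26), and higher in Ag+Costim, with 0.82 (SE 0.28). The latter call had an edgeR adjusted p of 0.0255 and was lost when either Naive library was left out. It was also lost with upper-quartile scaling and on both FPKM scales.

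**Figure D1:**
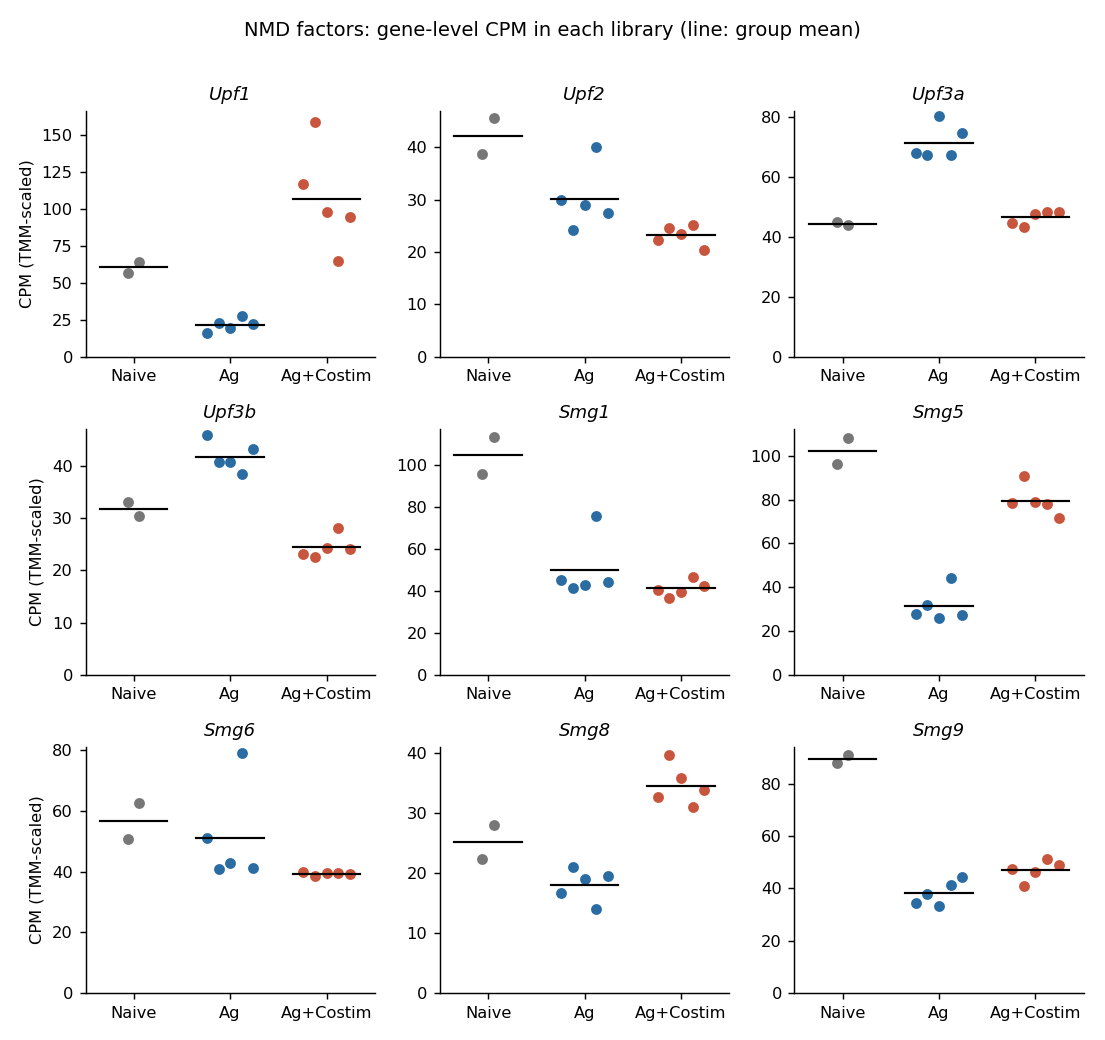
TMM-scaled CPM (y axis, from 0) of the 9 NMD factors in each library (points) of Naive (n = 2), Ag (n = 5) and Ag+Costim (n = 5), with the group mean as a line. Upf1 lies at 16.0 to 28.0 CPM in Ag and 64.6 to 159 CPM in Ag+Costim, Upf3a and Upf3b are higher in Ag than in Ag+Costim in every library, and Ag 4 stands above the other Ag libraries for Smg1 and Smg6.

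Upf2 (chr2:5951469-6056703, plus strand), the bridge between Upf1 and the Upf3 proteins, moved the other way. It had 29.9, 24.3, 29.0, 40.0 and 27.5 CPM in Ag 1 to 5 and 22.3, 24.5, 23.5, 25.2 and 20.5 CPM in Ag+Costim 1 to 5. The ranges overlapped, because Ag 2 lay below 2 Ag+Costim libraries. Ag+Costim against Ag gave a log2 fold change of -0.38 (SE 0.13, edgeR adjusted p 0.0236). Without Ag+Costim 5 it was -0.33 and no longer called, with an adjusted p of 0.0598. Naive libraries had 38.7 and 45.7 CPM, and Upf2 was lower than Naive in Ag (log2 fold change -0.49) and in Ag+Costim (-0.86). In Ag the libraries overlapped those of Naive, and the call was lost without Naive 2 (adjusted p 0.246), with upper-quartile scaling, with the length correction and with the 2 groups alone.

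Upf3a and Upf3b, the paralogs that contact the exon junction complex, were the factors with the highest levels in Ag relative to both other groups. Upf3a (chr8:13785615-13799193, plus strand) had 68.0, 67.1, 80.0, 67.0 and 74.6 CPM in Ag 1 to 5. Its values were 44.5, 43.1, 47.7, 48.3 and 48.4 CPM in Ag+Costim 1 to 5, and 44.7 and 43.8 CPM in Naive. Ag+Costim overlapped Naive, and every Ag library stood above both. Its log2 fold change was 0.69 (SE 0.10) for Ag against Naive and -0.62 (SE 0.08, edgeR adjusted p 1.33e-05) for Ag+Costim against Ag. For Ag+Costim against Naive it was 0.07 (SE 0.10) and was not called. It was below 0 with upper-quartile scaling, FPKM or the replicate block. With the length correction it was -0.24 and was called lower (adjusted p 0.0323).

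Upf3b (chrX:37091678-37110322, minus strand) had 45.9, 40.7, 40.7, 38.4 and 43.3 CPM in Ag 1 to 5 and 23.2, 22.5, 24.3, 28.1 and 24.1 CPM in Ag+Costim 1 to 5. Naive libraries, at 33.0 and 30.4 CPM, lay between the ranges of the stimulated groups without touching either. Its log2 fold change was -0.78 (SE 0.09, edgeR adjusted p 6.77e-06) for Ag+Costim against Ag. Against Naive it was 0.40 in Ag and -0.38 in Ag+Costim, so this factor was called on opposite sides of Naive. The call in Ag against Naive was lost without either Naive library, with the replicate block, with the length correction and on both FPKM scales, and that in Ag+Costim against Naive without Naive 1.

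Smg1 (chr7:118131308-118243670, minus strand), the kinase of Upf1, was lower in both stimulated groups than in Naive. It had 95.8 and 113 CPM in Naive, 45.1, 41.4, 42.9, 75.4 and 44.1 CPM in Ag 1 to 5, and 40.6, 36.8, 39.5, 46.4 and 42.4 CPM in Ag+Costim 1 to 5. All 10 stimulated libraries lay below both Naive libraries. The log2 fold change against Naive was -1.07 (SE 0.19) in Ag and -1.35 (SE 0.19) in Ag+Costim. Between the stimulated groups it was -0.27 (SE 0.15, edgeR adjusted p 0.152), and -0.08 without Ag 4, the library with the lowest total.

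Smg8 and Smg9, the partners of Smg1, differed from it and from each other. Smg8 (chr11:87077732-87086774, minus strand) had 16.7, 21.0, 19.0, 14.0 and 19.5 CPM in Ag 1 to 5 and 32.6, 39.7, 35.8, 30.9 and 33.8 CPM in Ag+Costim 1 to 5. Naive, with 22.4 and 28.1 CPM, fell in the gap between the groups. The log2 fold change of Ag+Costim against Ag was 0.94 (SE 0.12, edgeR adjusted p 2.48e-05). Against Naive it was -0.48 in Ag and 0.45 in Ag+Costim. The fall in Ag was not called without Naive 2 or with the 2 groups alone. The rise in Ag+Costim was not called without Naive 1, Ag+Costim 2 or Ag+Costim 3. It was also lost with upper-quartile scaling, on both FPKM scales and with the length correction (0.15, edgeR adjusted p 0.343).

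Smg9 (chr7:24399619-24422778, plus strand) had 88.0 and 91.1 CPM in Naive, 34.6, 38.0, 33.3, 41.2 and 44.2 CPM in Ag 1 to 5, and 47.5, 40.8, 46.1, 51.2 and 49.0 CPM in Ag+Costim 1 to 5. The stimulated groups overlapped, since Ag+Costim 2 lay below Ag 4 and Ag 5, and all of their libraries lay far under Naive. Its log2 fold change was -1.23 (SE 0.12) for Ag against Naive and -0.93 (SE 0.12) for Ag+Costim against Naive. For Ag+Costim against Ag it was 0.30 (SE 0.09, edgeR adjusted p 0.0182), a call that upper-quartile scaling (0.10) and the fit on FPKM (0.19) did not keep.

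Smg5 (chr3:88336260-88362338, plus strand), which links Upf1 to deadenylation and decapping, had 96.5 and 108 CPM in Naive and 28.0, 32.1, 25.8, 44.1 and 27.2 CPM in Ag 1 to 5. In Ag+Costim 1 to 5 it had 78.4, 90.9, 78.9, 78.1 and 71.6 CPM. The 3 groups did not overlap, with Ag lowest and Naive highest. The log2 fold change was -1.70 (SE 0.17) for Ag against Naive, the lowest of the 9 factors, and 1.34 (SE 0.14, edgeR adjusted p 2.33e-06) for Ag+Costim against Ag. Ag+Costim against Naive gave -0.36 (SE 0.17) and was not called (edgeR p 0.0558, adjusted p 0.0944).

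Smg6 (chr11:74925823-75164448, plus strand), the endonuclease, had 50.8 and 62.7 CPM in Naive, 51.2, 40.8, 42.9, 79.0 and 41.1 CPM in Ag 1 to 5, and 40.0, 38.6, 39.5, 39.4 and 39.1 CPM in Ag+Costim 1 to 5. The Ag+Costim libraries, at 39.3 ± 0.50 CPM (SD, n = 5), lay close together and under every Ag library, with Ag 2 and Ag 5 just above them. The log2 fold change of Ag+Costim against Ag was -0.37 (SE 0.16), and the edgeR adjusted p of 0.0713 did not pass. It passed without Ag 2 or without Ag 5 (-0.44 in each case) and was -0.16 without Ag 4. Against Naive, Smg6 was -0.16 in Ag, not called, and -0.53 in Ag+Costim, called at an adjusted p of 0.0493 that 11 of 22 alternatives did not keep.

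By library, 3 of the 9 factors (Upf1, Smg5 and Smg8) were higher in every Ag+Costim library than in any Ag library, against 21.3% of all genes, and 3 (Upf3a, Upf3b and Smg6) were lower, against 18.5%. The median log2 fold change of the 9 factors was -0.27, and that of all genes tested was -0.05. Without Ag 4 these medians were -0.078 and -0.021. With upper-quartile scaling, which moved the median of all genes to -0.24, the calls were 3 higher and 5 lower, with Smg1 (-0.48) and Smg6 (-0.58) called lower. Fold changes also ran with transcript length across all genes, with a median of -0.33 for genes under 2 kb and 0.29 for genes over 5 kb in Ag+Costim against Ag. With each library corrected for that trend, all 9 factors were called, among them Smg6 at -0.85, Upf2 at -0.86 and Smg1 at -0.28, and Smg5 was 0.88.

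Relative to Naive cells, Ag held less of most factors. Of the 9, 6 were called lower in Ag than in Naive (Upf1, Upf2, Smg1, Smg5, Smg8 and Smg9), against 22.5% of all genes. Only Upf3a and Upf3b were called higher, against 24.2%, and Smg6 was not called. The median log2 fold change of the 9 was -0.49, and that of all genes was 0.02. Across all genes the median in Ag against Naive was 0.33 for those under 2 kb and -0.62 for those over 5 kb, and with the length correction 1 factor was called higher and 5 lower, with a median of -0.40 against -0.17 for all genes. In Ag+Costim against Naive, 2 factors (Upf1 and Smg8) were called higher, against 26.9%, and 5 (Upf2, Upf3b, Smg1, Smg6 and Smg9) lower, against 25.4%. The median there was -0.38, and that of all genes was -0.02. Without Naive 1, which leaves a single Naive library, 3 factors stayed called in that comparison (Upf2, Smg1 and Smg9), and without Naive 2, 5 were called in Ag against Naive. The 3 comparisons share libraries and are not independent.

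**Figure D2:**
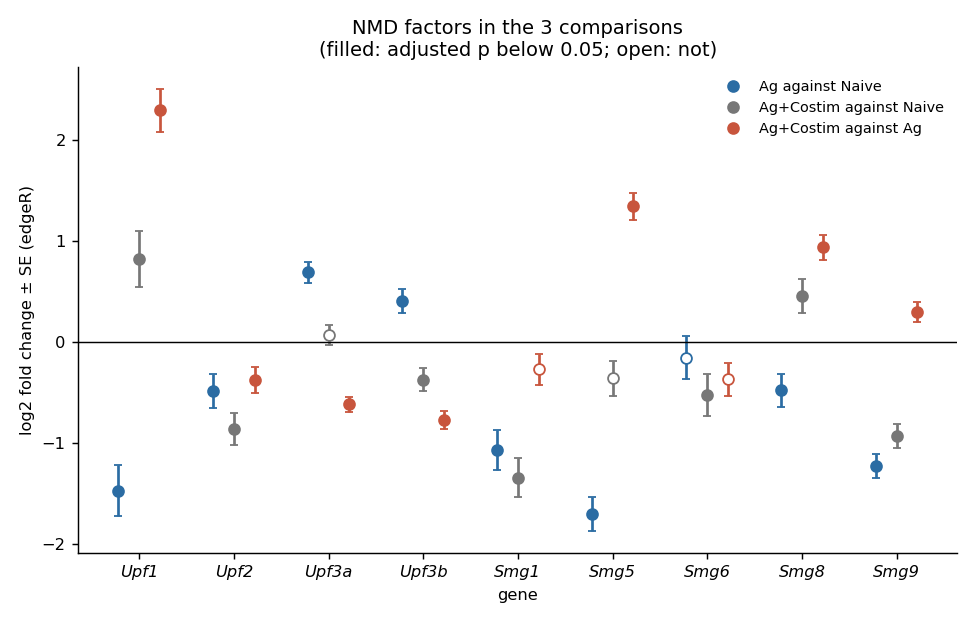
Log2 fold change with its SE (y axis, edgeR on all 12 libraries) of each NMD factor in Ag against Naive, Ag+Costim against Naive and Ag+Costim against Ag, filled where the adjusted p was below 0.05. Upf1, Smg5 and Smg8 are below 0 in Ag against Naive and above 0 in Ag+Costim against Ag, and Upf3a and Upf3b show the opposite order.

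Levels of different genes were compared on FPKM, which is per length, as the sum over the transcripts of a gene. In Naive, Smg9 (49.8) and Smg5 (33.4) were the most abundant, then Upf3a (24.0), Upf3b (14.7) and Upf1 (14.7), and Smg8 (8.65) and Upf2 (9.11) had the lowest means, with libraries that overlapped. Ag had another order, led by Upf3a at 34.6 ± 1.69 FPKM (SD, n = 5), with Smg9 at 18.8 ± 2.65 and Upf3b at 17.5 ± 1.09 next to each other within their spread. Upf1 (4.74 ± 1.15) and Smg1 (4.72 ± 1.49) were last in Ag and their libraries overlapped with those of Smg8 (5.49 ± 0.75) and Upf2 (5.75 ± 1.33). In Ag+Costim the 4 highest could not be ordered, with Upf1 at 22.4 ± 7.38, Upf3a at 21.5 ± 1.10, Smg9 at 21.5 ± 1.84 and Smg5 at 20.4 ± 1.38 FPKM. Smg8 (10.3 ± 1.01) and Upf3b (9.90 ± 0.87) followed within their spread, then Smg6 (6.83 ± 0.22), Upf2 (4.32 ± 0.35) and Smg1 (3.88 ± 0.45).

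Ratios of partners on the same FPKM scale changed with them. The ratio of Upf1 to Upf2 was 0.606 to 1.09 in the Ag libraries, 2.88 to 7.40 in Ag+Costim and 1.58 and 1.66 in Naive. For Smg5 to Smg6, the Ag libraries had 0.936 to 1.36, the Ag+Costim libraries 2.73 to 3.45 and the Naive libraries 2.71 and 3.08. Smg8 to Smg9 ranged from 0.211 to 0.356 in Ag and from 0.387 to 0.633 in Ag+Costim, and was 0.158 and 0.189 in Naive. The ranges of the stimulated groups did not overlap for these ratios. For Upf3a to Upf3b they did, with 1.72 to 2.25 in Ag and 1.98 to 2.30 in Ag+Costim. Naive had 1.57 and 1.69.

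The genes whose log2 CPM followed Upf1 most closely over the 12 libraries, out of 9252 genes with a mean log2 CPM above 3, were Scaf4 (Pearson r 0.992), Pdzd8 (0.991), Ttc37 (0.989), Rnf126 (0.989) and Tmem201 (0.988). Each was lowest in Ag and highest in Ag+Costim, as Upf1 was, with Scaf4 at means of 48.2, 27.0 and 72.9 CPM in Naive, Ag and Ag+Costim. The 12 libraries share the 3 groups, so the correlations describe a common group pattern.

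Transcripts were examined next. The 9 factors have 45 annotated transcripts, of which 27 passed the filter on low counts. Only 13 held 10% or more of the counts of their gene in any group mean. Upf2, Upf3a, Smg1, Smg6 and Smg8 each had a single such transcript, the full-length coding one, with 90.0% to 100% of the counts of its gene in the group means. These shares are not scaled for length, and Smg1-201 has 15557 bases. Per kilobase, a measure added after the data were seen, Smg1-201 held means of 55.6% in Naive, 60.8% in Ag and 59.2% in Ag+Costim. In the same order, Smg1-203 held 14.5%, 4.70% and 18.4%, and Smg6-203 held 11.3%, 1.10% and 9.62%. Upf1, Upf3b, Smg5 and Smg9 had 2 each. Transcript counts come from StringTie's assignment of reads that several transcripts share.

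Smg5 showed the largest shift. Smg5-201, the full-length coding transcript, had 8.24, 8.75, 7.07, 17.5 and 9.86 transcript CPM in Ag 1 to 5 and 65.5, 77.4, 64.1, 56.7 and 53.7 in Ag+Costim 1 to 5. Smg5-203, the transcript that ends in intron 12 as printed above, had 19.7, 23.1, 19.2, 23.6 and 17.4 transcript CPM in Ag and 15.1, 17.3, 18.8, 22.0 and 18.7 in Ag+Costim. The coding transcript stood apart between the groups in every library, and the truncated one overlapped. As a share of the gene's counts, Smg5-201 was 26.4% to 42.2% in Ag and 70.8% to 80.3% in Ag+Costim, and Smg5-203 was 56.9% to 71.8% and 18.0% to 27.5%. The Naive libraries lay between, with 55.3% and 58.3% on Smg5-201 and 41.6% and 38.8% on Smg5-203. The mean share of Smg5-203 was 66.6% ± 6.51 (SD, n = 5) in Ag and 22.2% ± 4.21 (SD, n = 5) in Ag+Costim, a difference of -44.3 percentage points with an exact permutation p of 0.00794, two-sided. That is the smallest p that 252 assignments of 5 against 5 libraries allow, and the p-values of shares are given without adjustment over the 16 transcripts compared.

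**Figure D3:**
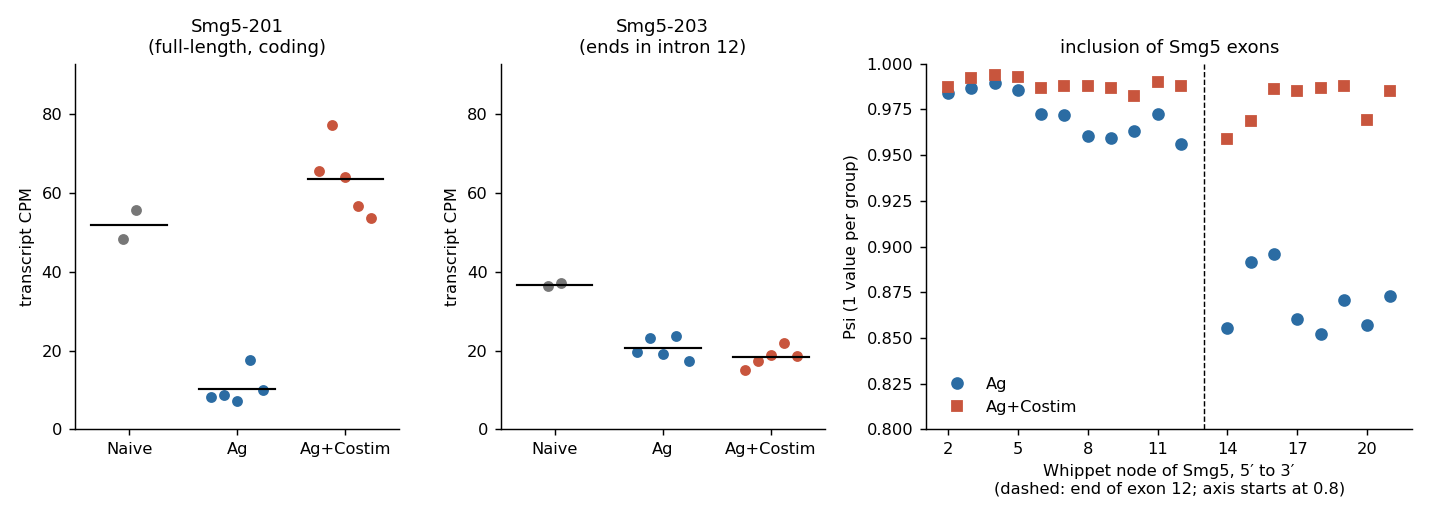
Left and middle, transcript CPM (y axis, from 0) of the full-length Smg5-201 and the truncated Smg5-203 in each library, with group means as lines. Right, Psi (y axis, from 0.8; 1 value per group) of 19 Smg5 nodes in 5′ to 3′ order, where Ag lies at 0.852 to 0.896 beyond the end of exon 12 (dashed) and Ag+Costim at 0.959 to 0.988.

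The authors' Whippet table gave another measure of the same gene, from the same groups of libraries and so not independent. Psi is the fraction of reads at an exon or part of one, called a node, that include it. Within the exons that Smg5-203 shares, 11 nodes had a Psi of 0.956 to 0.990 in Ag and 0.982 to 0.994 in Ag+Costim. Beyond its end, 8 nodes had 0.852 to 0.896 in Ag and 0.959 to 0.988 in Ag+Costim. The difference there was 0.077 to 0.135, and it reached 0.1 in 6 of the 8 nodes. These were the only 6 of the 147 nodes of the 9 factors with a Psi at least 0.1 higher in Ag+Costim, against 4.0% of all 115403 nodes, and none was lower by as much, against 3.39%. All 147 nodes are of the core exon type, and over the 89034 nodes of that type the shares were 1.48% and 0.548%. With 1 value per group, Psi has no replicate error here. The mean count share of Smg5-203 fell from 66.6% in Ag to 22.2% in Ag+Costim, a much larger shift than that in Psi. Psi at a node is not the share of a transcript. Whether both shifts have the same source was not tested.

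By any amount, 122 of the 147 nodes had a higher Psi in Ag+Costim than in Ag, against 66.9% of all nodes and 71.9% of core exon nodes. All 22 nodes of Upf1 did, with medians of 0.946 in Ag and 0.993 in Ag+Costim, and so did all 12 of Smg9 and both of Smg8. Upf3a (7 nodes) and Upf3b (8 nodes) had a lower Psi in Ag+Costim at every node, with medians of 0.995 and 0.993 for Upf3a and 0.991 and 0.983 for Upf3b.

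Smg9 shifted in the same direction as Smg5 by a smaller amount. The truncated Smg9-205 held 15.9%, 11.7%, 17.4%, 19.4% and 10.5% of the gene in Ag 1 to 5 and 6.99%, 10.04%, 7.01%, 6.27% and 7.84% in Ag+Costim 1 to 5. The lowest Ag library, at 10.5%, was next to the highest Ag+Costim library, at 10.04%, and the groups did not overlap. The mean difference was -7.34 percentage points, and that of the full-length Smg9-201 was 8.27, each with an exact permutation p of 0.00794. In counts, Smg9-205 had 5.65 ± 1.22 transcript CPM (SD, n = 5) in Ag and 3.71 ± 0.43 in Ag+Costim, while Smg9-201 had 31.0 ± 4.29 and 43.9 ± 3.65. Naive held 13.2% and 18.6% on Smg9-205.

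For Upf1, the shares of the long-loop and short-loop transcripts varied widely between the Ag libraries. Upf1-202, without the 33 bases, held 72.5%, 70.6%, 5.24%, 100% and 74.9% of the counts in Ag 1 to 5, so that Ag 3 and Ag 4 sat near opposite ends. In Ag+Costim 1 to 5 it held 85.5%, 77.9%, 86.8%, 61.9% and 85.1%, and in Naive 70.2% and 76.0%. The mean difference of 14.8 percentage points had an exact permutation p of 0.492, and it was -0.07 points without Ag 3. The transcripts share nearly all of their bases, and the gene had 707 to 1037 counts in Ag. The Psi table used here has 1 node for the whole of exon 7 and none for the 33 bases alone.

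Upf3b-203, a processed transcript without a coding sequence, set Naive apart. It held 18.0% and 20.5% of Upf3b in Naive, 1.92% to 9.79% in Ag and 2.56% to 6.31% in Ag+Costim. Between the stimulated groups the difference was -0.21 percentage points (exact permutation p 0.921). Smg6-201 went from 98.5% to 99.9% of its gene in Ag to 94.0% to 97.1% in Ag+Costim, a difference of -3.42 points (exact permutation p 0.00794).

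The test of transcript usage across all genes (edgeR's diffSpliceDGE, each transcript against the others of its gene) called 6 of the 27 transcripts. It called 4 higher in Ag+Costim, against 3.77% of the 41844 transcripts tested, and 2 lower, against 5.0%. Smg5-201 had a log2 relative change of 1.22 (adjusted p 2.02e-19), Smg5-203 of -1.58 (adjusted p 5.01e-24) and Smg9-205 of -0.96 (adjusted p 1.04e-05). The others were Smg6-203 (3.20), Smg1-203 (2.13) and Upf3a-203 (1.48). These hold under 5% of the counts of their genes in every group mean and were looked at after their values were seen. Their mean shares in Ag and Ag+Costim were 0.427% and 3.89% for Smg6-203, 0.687% and 2.87% for Smg1-203, and 0.887% and 2.22% for Upf3a-203. In that order, exact permutation p-values were 0.00794, 0.0476 and 0.00794, and mean counts in Ag were 8.4, 12.8 and 22.2. These p-values use the same libraries as the calls that picked the 3 transcripts, so they are no separate check. In simulated counts the usage test missed most of the transcripts that had been changed and called some that had not been. Its calls are therefore given beside the permutation tests of shares, and a transcript not called may still have changed. Leaving out single libraries lost the calls of Upf3a-203 (Ag 1, Ag 2, Ag 3, Ag+Costim 1, Ag+Costim 2 or Ag+Costim 4) and of Smg1-203 (Ag+Costim 1 or Ag+Costim 3).

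The amount of RNA that the annotation itself types as a target of NMD was read over the whole transcriptome. Of 141862 annotated transcripts, 7186 carry that type. They held 2.18%, 2.21%, 2.16%, 2.05% and 2.11% of the transcript counts in Ag 1 to 5, and 1.64%, 1.55%, 1.61%, 1.79% and 2.02% in Ag+Costim 1 to 5. The highest Ag+Costim library lay just below the lowest Ag library, and Naive was above both groups with 2.57% and 2.62%. The difference of -0.42 percentage points between Ag+Costim and Ag had an exact permutation p of 0.00794. Within the 4491 genes that have a coding and an NMD-typed transcript, Naive had 8.46% and 8.52%, Ag had 7.63% ± 0.19 (SD, n = 5) and Ag+Costim had 5.73% ± 0.67 (SD, n = 5), and the test between the last 2 gave the same p.

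**Figure D4:**
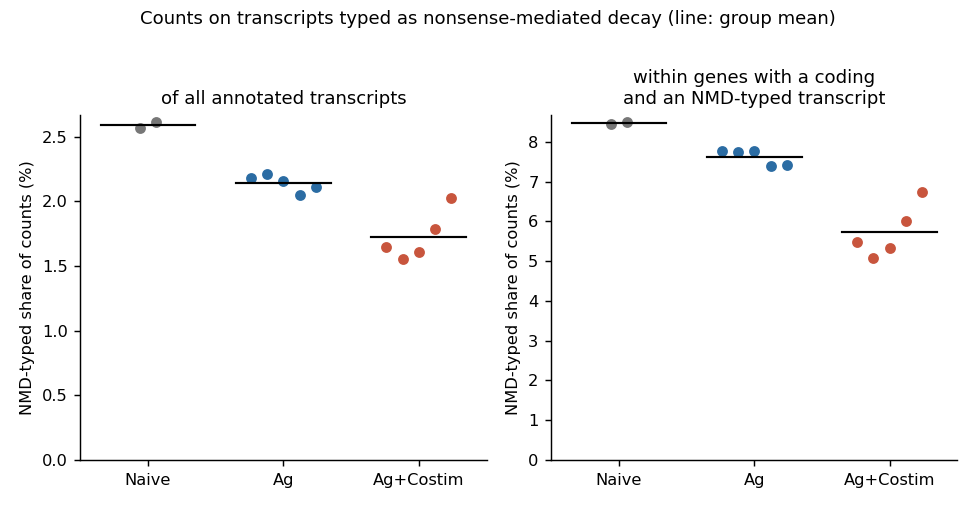
Share of transcript counts (%, y axis from 0) on transcripts that the annotation types as targets of NMD, per library, over all annotated transcripts (left) and within the 4491 genes with a coding and an NMD-typed transcript (right), with group means as lines. On the left Naive lies at 2.57% and 2.62%, Ag at 2.05% to 2.21% and Ag+Costim at 1.55% to 2.02%.

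Other genes of the pathway were read as lists. Of 13 other NMD factors and helpers, 9 were called higher in Ag+Costim than in Ag and 1 lower (median log2 fold change 0.65). Tti1 (1.49, SE 0.15) and Tti2 (1.30, SE 0.11), cochaperones that help to build Smg1 and related kinases, had the largest rises among those whose libraries did not overlap. Pnrc2, which has been linked to decapping in NMD, was lower at -0.81 (SE 0.11).

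In the exon junction complex, which marks spliced junctions, 6 of 10 were called higher and 1 lower (median 0.47). Pym1, which takes the complex apart, rose by 1.31 and Casc3, a core component, by 1.05, while Sap18 was lower (-0.41). Of 10 genes of translation termination and the mRNA cap, 8 were called higher and none lower (median 0.93). Eif4g1, the scaffold of the cap-binding complex, rose by 2.71 (SE 0.18), from 33.4 ± 8.06 to 218 ± 46.2 CPM (SD, n = 5 each), more than Upf1 itself. Abce1, which recycles ribosomes after termination, rose by 1.40.

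Enzymes that carry out the decay followed. In decapping and decay, 9 of 13 were called higher and 2 lower (median 0.48), with Patl1 at 2.04, Dis3, a nuclease of the exosome, at 1.65, Pnrc1 at -2.48 and Lsm1 at -0.47. In deadenylation, 8 of 13 were called higher and 1 lower (median 0.66), with Cnot1, the scaffold of the CCR4-NOT complex, at 1.33 and Cnot9 at 1.09. Neither of the 2 Staufen genes was called. Of the 5 kinases related to Smg1, 2 were called higher and none lower (median 0.41), with Mtor at 1.27 and values of 0.26 to 0.65 for the others. Without Ag 4 all 5 were called higher, and with the length correction 1 was. With that correction, 5 of the 10 termination and cap genes were called higher. It gave 6 higher and 4 lower in decapping and decay, and 6 and 2 in deadenylation. For the other NMD factors it gave 6 and 2, and for the exon junction complex 7 and 1. For all of these lists the background was the one given above, 26.6% of all genes higher and 26.5% lower.

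The last list holds 16 genes whose RNAs are widely used as examples of NMD targets. They are coding and non-coding, the latter including Gas5 and Zfas1. Costimulation raised 4 and lowered 5 of them (median -0.08), against 26.6% and 26.5% of all genes. Cdkn1a (2.15) and Tbl2 (1.91) rose, and Ddit3 (-2.11) and Gadd45a (-1.50) fell. Ddit3, a transcription factor of the stress response, had 27.5 ± 3.40 CPM (SD, n = 2) in Naive, 41.3 ± 2.86 (SD, n = 5) in Ag and 9.54 ± 2.71 (SD, n = 5) with costimulation. The genes of the list moved in both directions, and with the length correction 5 were called higher and 4 lower.

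**Figure D5:**
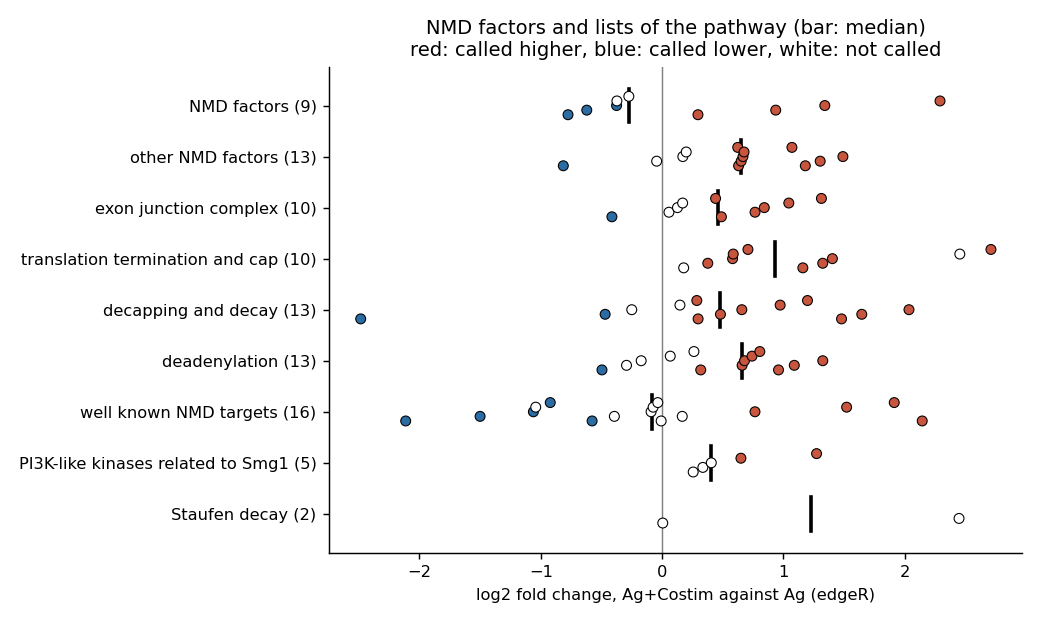
Log2 fold change of Ag+Costim against Ag (x axis, edgeR) of each gene (point) in the NMD factors and 8 lists of the pathway, red where called higher, blue where called lower and white where not called, with the list median as a bar and the number of genes in brackets. The 9 factors have a median of -0.27 (-0.078 without Ag 4), and the lists of termination and cap (0.93), deadenylation (0.66) and other NMD factors (0.65) lie mostly to the right of 0.

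Against Naive, the same lists were called as follows, where 24.2% of all genes were higher and 22.5% lower in Ag, and 26.9% and 25.4% in Ag+Costim. In Ag, 2 higher and 7 lower of the other NMD factors, 5 and 3 of the exon junction complex, 3 and 3 of termination and cap, 3 and 5 of decapping and decay, 3 and 5 of deadenylation, 4 and 4 of the targets and 0 and 5 of the kinases passed the test. In Ag+Costim the counts were 4 and 3, 6 and 1, 8 and 0, 6 and 3, 5 and 2, 3 and 7, and 0 and 2 in the same order. With the length correction, the targets had 0 higher and 7 lower in Ag, and 2 and 9 in Ag+Costim. In the same groups, the other NMD factors had 0 and 6, then 4 and 5. The exon junction complex had 2 and 3, then 4 and 4. Termination and cap had 2 and 3, then 8 and 0. Decapping and decay had 4 and 6, then 2 and 3. Deadenylation had 3 and 4, then 4 and 2. Without that correction, none of the Staufen genes was called in Ag and 1 was called higher in Ag+Costim. It had a mean of 0 CPM in Naive and 1.03 CPM in Ag+Costim. A termination and cap gene called higher there was likewise low, at means of 0 and 0.27 CPM. The 5 kinases related to Smg1 and Smg1 itself were all lower in Ag than in Naive, with log2 fold changes of -1.25 to -0.91 for the 5 kinases and -1.07 for Smg1. With the length correction, 2 of the 5 kinases were called lower in Ag and Smg1 was -0.40, and without Naive 2, 3 of the 5 were called.

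Promoters were read for the 3 factors that were higher in every Ag+Costim library than in any Ag library. Each sequence is 250 bases before to 50 after the start site (RefSeq GRCm38.p6), 5′ to 3′ on the strand of the gene, at chr8:70353230-70353529 (minus) for Upf1, chr3:88336010-88336309 (plus) for Smg5 and chr11:87086728-87087027 (minus) for Smg8. Capitals mark the motifs searched, on either strand.
Upf1 promoter: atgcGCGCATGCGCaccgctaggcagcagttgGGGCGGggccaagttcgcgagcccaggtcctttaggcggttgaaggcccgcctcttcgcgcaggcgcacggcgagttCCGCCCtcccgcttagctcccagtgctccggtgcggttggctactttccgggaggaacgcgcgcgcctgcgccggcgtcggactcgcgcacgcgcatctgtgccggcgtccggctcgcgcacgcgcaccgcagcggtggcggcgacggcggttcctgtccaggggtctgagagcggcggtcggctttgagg
Smg5 promoter: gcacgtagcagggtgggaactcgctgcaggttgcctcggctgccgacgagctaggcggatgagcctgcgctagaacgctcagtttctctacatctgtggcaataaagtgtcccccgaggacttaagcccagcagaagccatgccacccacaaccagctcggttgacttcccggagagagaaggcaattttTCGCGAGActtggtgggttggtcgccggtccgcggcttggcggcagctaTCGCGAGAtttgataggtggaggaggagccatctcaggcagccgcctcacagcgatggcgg
Smg8 promoter: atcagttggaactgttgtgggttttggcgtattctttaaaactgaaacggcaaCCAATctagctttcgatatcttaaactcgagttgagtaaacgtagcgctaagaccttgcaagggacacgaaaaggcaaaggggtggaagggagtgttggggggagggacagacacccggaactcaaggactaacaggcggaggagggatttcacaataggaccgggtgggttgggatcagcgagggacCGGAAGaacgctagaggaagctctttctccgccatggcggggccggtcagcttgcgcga

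The 6 motifs were searched on both strands of all 32851 promoters of 300 bases. TCGCGAGA is in 0.995% of all promoters, and Smg5 and Upf3b each hold it at 2 places, which overlap in Upf3b. GCATGCGC is in 2.71% and occurs in Upf1 and Smg9. The letters CGGAAG, in 16.9% of all promoters, occur in Smg8 alone among the factors. Smg8 also holds the letters CCAAT (37.4% of all promoters), as do Upf3a, Upf3b and Smg1. The letters GGGCGG (35.7%) occur in the 7 factors other than Smg5 and Smg8. The letters CACGTG (7.15%) occur in none of the 9. No motif was in all 3 promoters printed. A match is a run of letters and was not tested for binding.

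The counting could take in reads of other genes that overlap the factors, since the use of strand is not stated. The largest such gene was Srr, which overlaps Smg6 by 126 bases on the opposite strand and had up to 802 counts in a library, against 1507 to 2988 for Smg6. Cers1 overlaps Upf1 by 68 bases and had at most 4 counts, and the other overlapping genes had at most 183.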

How the data were processed

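RNA-seq of 12 libraries of OT-I CD8+ T cells (Naive 2, Ag 5, Ag+Costim 5) was used, each assigned to its group from the labels. Libraries were made with SMART-Seq v4 and Nextera XT from single-end reads, and the authors aligned them to mm10 with HISAT2 2.1.0 and SAMtools 1.9 and quantified them with StringTie 2.1.0 (versions from the submitters' processing notes). The deposited counts per gene and per transcript are unnormalized estimates that StringTie derives from coverage, so depth is the total count of a library. FPKM, also deposited, is 1 value per transcript that StringTie scaled for length and library size. Psi, deposited as a fraction per group, is from Whippet, and how it combined replicates is not given in the sources used here. The deposited scores of that table (Psi difference, probability) are the authors' own comparison and were not used, nor was a sequencing core's annotation sheet.

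Genes were matched to GENCODE vM21, and 26345 unannotated loci (0.0508% to 0.121% of counts) were left out. Counts were fitted with edgeR 4.0.16 in R 4.3.3 (TMM, filterByExpr, robust quasi-likelihood, 1 term per group, all 12 libraries), with DESeq2 1.42.0 and limma 3.58.1 as alternatives. The study used DESeq2 1.30.1. Transcript usage was tested with diffSpliceDGE, and shares with exact permutation tests, two-sided. Log2 CPM for likeness used a prior count of 2. The tests were run on simulated data before use. The background of core exon nodes was added after the data were seen. The members, the lists of the pathway and the markers were chosen with earlier results of these data known, so no list was tested. Named were all members, up to 2 called genes per list with the largest rise and fall and no overlap between groups, the 5 genes most like Upf1, transcripts with 10% of a gene and nodes with a Psi difference of 0.1. The transcripts under 10% were named outside that rule in Ag+Costim against Ag. 1 item that the rule names is not reported here. Alternatives were other scalings, filters, tests, units, a length correction, the replicate number as a block and each library left out. Tables and plots were made in Python 3.11.15 with pandas 2.3.3, matplotlib 3.10.9 and numpy 2.4.6.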

Additional observations from a re-analysis of the deposited data

Results flagged for a closer look

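Of 59 groups of 5 libraries examined, 7 held a library far from the other 4. The rule flags about 1 in 20 groups of independent, normally spread values. Shares near 100% and shares of transcripts of the same gene are not such values, so 7 cannot be set against that rate. Ag 4, the library with the lowest total, was the high one for Smg1 at 75.4 CPM, with the next at 45.1, and for Smg6 at 79.0 CPM, with the next at 51.2. It was also the low one for the share of Upf3a-201, at 93.6% with the next at 97.0%. Ag 3 was low for the share of Upf3b-201, at 89.4% with the next at 95.8%. In Ag+Costim, replicate 2 was low for Smg9-201 at 87.1% and for Smg8-201 at 99.3%, where the other 4 libraries had 100%, and replicate 3 was low for Upf2-201 at 99.4%. The part of depth in these values was not tested.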

How the results depend on the processing

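In Ag+Costim against Ag, Upf1, Upf3a, Upf3b, Smg5 and Smg8 kept direction and call in all 22 alternatives, among them DESeq2, RLE scaling and each library left out. The number of factors called when single libraries were left out was 6 to 8 in Ag+Costim against Ag, 5 to 9 in Ag against Naive and 3 to 8 in Ag+Costim against Naive. A fit without 1 Naive library has a lone Naive sample, assumed to vary like the other groups. Over all factors and comparisons, 534 alternatives kept direction and call, 40 lost a call, 13 gained one and 7 turned direction. Upf3a in Ag+Costim against Naive turned to -0.084 with upper-quartile scaling, -0.24 with the length correction, -0.15 with log2(FPKM + 1) and -0.16 with log2(FPKM + 0.1). Smg6 in Ag against Naive was 0.28 with the length correction and -0.37 to 0.00063 when single libraries were left out. Dcp2 in Ag+Costim against Naive was -0.11 and -0.12 on the FPKM scales. With upper-quartile scaling or FPKM, Ag+Costim against Naive had 0 factors called higher and 6 lower. Shares per kilobase, added after the data were seen, gave -1.55 points for Smg1-201 and 0.86 for Upf3a-201. The usage calls numbered 4 to 6 and the difference in NMD-typed share was -0.50 to -0.38 points when single libraries were left out. Over the same fits the share differences that changed sign were -23.6 to 0.072 points for Upf1-201, -0.072 to 23.6 for Upf1-202, -1.18 to 0.99 for Upf3b-201 and -0.80 to 1.17 for Upf3b-203. Other causes of these changes were not tested.

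Whether libraries of the same replicate number belong together could not be told. The deviations of such libraries from their group means correlated at 0.016 to 0.095. Of 5 Ag libraries, 3 matched best with their own number, and 5 libraries per group are too few to decide. With the replicate block, 7, 7 and 6 factors were called in the 3 comparisons (Ag+Costim against Ag, Ag against Naive, Ag+Costim against Naive), 7 transcripts were called, and Upf3a in Ag+Costim against Naive was -0.013. The NMD-typed share differed by -0.42 points with a sign-flip p of 0.0625 in the paired form, the smallest that 32 sign flips allow. The NMD-typed share on the FPKM scale was not run, because FPKM entries carry gene names only.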
